A study of Mus musculus with 3 samples.

Results

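Izumo1r, Cd200, Nt5e, Tspan32 and Ikzf2 are 5 genes, of 31053 in the count matrices, that were grouped because several of them are linked to T cell anergy and because their levels differed between the libraries of CD8 T cells measured here. The choice used these levels, so the levels are given as a description and carry no test. The cells were P14 cells, which are CD8 T cells whose transgenic antigen receptor recognises GP33, a peptide of lymphocytic choriomeningitis virus (LCMV). In the TdLN (tumour-draining lymph node) and PBMC (peripheral blood mononuclear cell) libraries, naive P14 cells from TCF-1-GFP reporter mice had been given to C57BL/6 mice on day 8 after B16.Gp melanoma cells, which are B16.F10 cells that express the LCMV glycoprotein. Both were taken on day 16 of the transfer, with a sort for CD8 T cells positive for CD45.1 and CD44. Memory P14 cells came from acute LCMV infection at day 200, with a sort for CD8 T cells positive for CD45.1, CD44, CD62L and CD127 and negative for KLRG1. The genotype is labelled WT and the strain C57BL/6 in all 3 groups. Each group is 1 library, so there is no measure of the spread between mice. The number of mice in each library and the tissue of the memory cells are not given in the sources used here. The memory library differs from the others in the host's challenge, the time and the sort, and these cannot be told apart. The share of receptor beta chain counts from segments other than that of P14 also differed between the libraries, as given below.

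Anergy is a state in which a T cell that has met its antigen responds poorly when it meets it again. Izumo1r encodes folate receptor 4 and Nt5e encodes CD73, the surface enzyme that turns AMP into adenosine; high levels of both proteins together mark anergic CD4 T cells. Cd200 encodes a surface ligand of the inhibitory receptor CD200R, Tspan32 a tetraspanin of blood cells that restrains T cell proliferation, and Ikzf2 the Ikaros family transcription factor Helios, best known from regulatory T cells. Tcf7 encodes TCF-1, the transcription factor of naive, memory and stem-like CD8 T cells that the reporter follows.

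After removal of barcodes with under 500 genes or over 10% mitochondrial counts, 6265 TdLN, 5652 PBMC and 7003 memory cells were left, with medians of 9674, 7085 and 9956 UMIs (unique molecular identifiers, each 1 counted RNA molecule). Between 18 and 31 of the kept barcodes in a library also occurred in another library. The defining genes of CD8 T cells were present in each library, with Cd8a between 332 and 484 CPM, the gene's share of all counts in the library on a common scale. Foxp3, which defines regulatory T cells, had 5, 1 and 1 counts in the TdLN, PBMC and memory libraries, and Cd4 had 168, 0 and 2. In TdLN, 77 kept cells carried B cell genes and 109 carried macrophage or dendritic cell genes at 0.2% or more of their UMIs. In PBMC and memory, 24 and 12 kept cells were marked for any other lineage. Values without these marked cells are given beside the results on pairs, on Tcf7 and on other genes.

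The genes lie on 4 chromosomes (GENCODE M21, GRCm38). Izumo1r is at chr9:14885814-14903949 on the minus strand, and Nt5e is at chr9:88327197-88372092 on the plus strand. Cd200 is at chr16:45382135-45409053 on the minus strand, Tspan32 at chr7:143005046-143019644 on the plus strand and Ikzf2 at chr1:69531214-69687245 on the minus strand. All 5 are protein-coding. Tspan32 overlaps the antisense gene Tspan32os, and Ikzf2 overlaps 1 antisense gene and 2 transcripts annotated within its introns on its own strand, so reads of the latter could not be told from unspliced Ikzf2 reads. The bases just before the RefSeq starts (GRCm38.p6), as far as they lie outside the GENCODE gene, are shown for 3 genes whose levels had the same order over the libraries. The windows are chr9:14903950-14904017 (minus strand) for Izumo1r, chr16:45409054-45409303 (minus strand) for Cd200 and chr7:143004796-143005045 (plus strand) for Tspan32. Capitals mark the EGR motif GCGNGGGCG.
Izumo1r: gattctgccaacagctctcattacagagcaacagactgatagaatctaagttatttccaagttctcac
Cd200: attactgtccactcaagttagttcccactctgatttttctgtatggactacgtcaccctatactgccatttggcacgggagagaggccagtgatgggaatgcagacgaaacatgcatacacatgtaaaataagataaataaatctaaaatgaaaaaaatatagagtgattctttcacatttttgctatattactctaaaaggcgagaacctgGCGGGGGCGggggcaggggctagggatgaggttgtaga
Tspan32: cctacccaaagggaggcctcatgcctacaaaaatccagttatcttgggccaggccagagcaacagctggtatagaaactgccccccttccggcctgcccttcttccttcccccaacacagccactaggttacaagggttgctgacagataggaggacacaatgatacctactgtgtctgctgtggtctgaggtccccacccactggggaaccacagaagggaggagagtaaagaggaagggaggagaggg

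EGR factors are induced by antigen receptor signals and act in anergy. In the full window of 250 bases before the start, searched on both strands, the EGR motif occurred once upstream of Cd200, 38 bases before its start, and not in the windows of Izumo1r, Tspan32 or Nt5e. Of 32851 RefSeq windows of this length, 4.70% held it. The AP-1 motif TGANTCA, held by 6.75% of the windows, and the TCF/LEF core CTTTGA, held by 13.8%, were in none of these 4 windows. The short NFAT motif GGAAA, held by 55.6% of the windows, occurred once, upstream of Izumo1r. The E-box CANNTG, held by 66.2%, occurred in each of these 4 windows. Ikzf2 was not searched. A match is a run of letters and not a measured binding site.

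Izumo1r, the folate receptor, was highest in TdLN. It had 17.6 CPM (95% Poisson interval 16.6 to 18.6) in TdLN, 3.47 CPM (2.97 to 4.03) in PBMC and 0.185 CPM (0.0987 to 0.317) in memory, where 13 counts were found in 7003 cells. The level in TdLN was 95.01-fold that in memory (95% interval 55.4 to 179) and 5.08-fold that in PBMC (4.32 to 6.00). The 3 intervals did not overlap. These intervals and all that follow cover counting error only, and fewer positive cells cannot be told from less RNA per cell in a sum over a library. Before any correction for depth, 666 TdLN cells held a mean of 1.84 Izumo1r UMIs and 123 PBMC cells a mean of 1.38, at the medians of 9674 and 7085 UMIs a cell given above.

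Cd200, the ligand of CD200R, had the same order at lower levels. It had 8.24 CPM (7.58 to 8.94) in TdLN, 1.16 CPM (0.881 to 1.51) in PBMC and 0.0143 CPM (0.000361 to 0.0795) in memory. The memory value is 1 count, so the ratio of 578-fold for TdLN over memory has an interval from 103 to 22860. Over PBMC, the TdLN level was 7.08-fold (5.39 to 9.47). Its receptor gene Cd200r1 was near the limit of detection, with 1.75, 0.551 and 1.34 CPM in TdLN, PBMC and memory.

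Cd200 was also frequent in the B cell-marked TdLN cells, where 21 of 77 (27.3%) held a UMI at a median of 4444 UMIs, against 5.46% of the unmarked TdLN cells at a median of 9742. Without the marked cells, Cd200 stood at 7.76 CPM in TdLN.

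Nt5e, the gene of CD73, had the opposite order. It had 8.08 CPM (7.43 to 8.78) in TdLN, 20.8 CPM (19.5 to 22.1) in PBMC and 27.3 CPM (26.1 to 28.6) in memory. The level in TdLN was 3.38-fold lower than in memory (3.08 to 3.72) and 2.57-fold lower than in PBMC (2.32 to 2.86). PBMC was 1.31-fold lower than memory (1.22 to 1.42). Nt5e is grouped with the other 4 genes by name, and its order over the libraries was the reverse of theirs. In the adenosine pathway, Entpd1, the enzyme CD39 that supplies AMP to CD73, had 1.75, 11.6 and 4.61 CPM in the TdLN, PBMC and memory libraries. Adora2a, an adenosine receptor gene, had 12.0, 15.1 and 20.8 CPM, and Adk, which removes adenosine, had 30.5, 14.5 and 11.5 CPM.

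Tspan32 was the most abundant of the 5 genes in TdLN and the least different between libraries of the 4 that were highest there. It had 40.0 CPM (38.5 to 41.5) in TdLN, 19.9 CPM (18.6 to 21.1) in PBMC and 10.4 CPM (9.66 to 11.2) in memory. The TdLN level was 3.85-fold that in memory (3.54 to 4.18) and 2.01-fold that in PBMC (1.87 to 2.17). B cell-marked TdLN cells held it in 44 of 77 cells (57.1%), at 155 CPM, against 24.0% of the unmarked cells. Without marked cells the log2 ratio of TdLN over PBMC moved from 1.01 to 0.98, just under 2-fold. Without cells that held at least 3 UMIs of 10 cell cycle genes it was 0.83; the shares of such cells were 9.29%, 3.27% and 0.80% in TdLN, PBMC and memory. Of the 14 other tetraspanin genes in a chosen list, 5 reached 20 CPM in TdLN or memory, and none of these differed by 2-fold or more between them (median log2 ratio 0.10).

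Ikzf2, the gene of Helios, had 19.9 CPM (18.9 to 20.96) in TdLN, 6.10 CPM (5.43 to 6.84) in PBMC and 0.342 CPM (0.219 to 0.509) in memory. The TdLN level was 58.1-fold that in memory (38.9 to 91.0) and 3.26-fold that in PBMC (2.87 to 3.71). A single TdLN cell held 23 Ikzf2 UMIs. None of the 77 B cell-marked cells held a UMI, which at their median of 4444 UMIs limits the share of cells with a detected UMI to 4.68%, not the share that express the gene. Among its relatives, Ikzf1, the gene of Ikaros, had the same order with smaller differences, at 186, 124 and 121 CPM in TdLN, PBMC and memory. Ikzf4, the gene of Eos, also had that order at low levels, with 1.42, 0.714 and 0.328 CPM. Ikzf3, the gene of Aiolos, had 37.2, 51.3 and 45.8 CPM, and Ikzf5 had 15.5, 16.3 and 21.8 CPM.

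**Figure D1:**
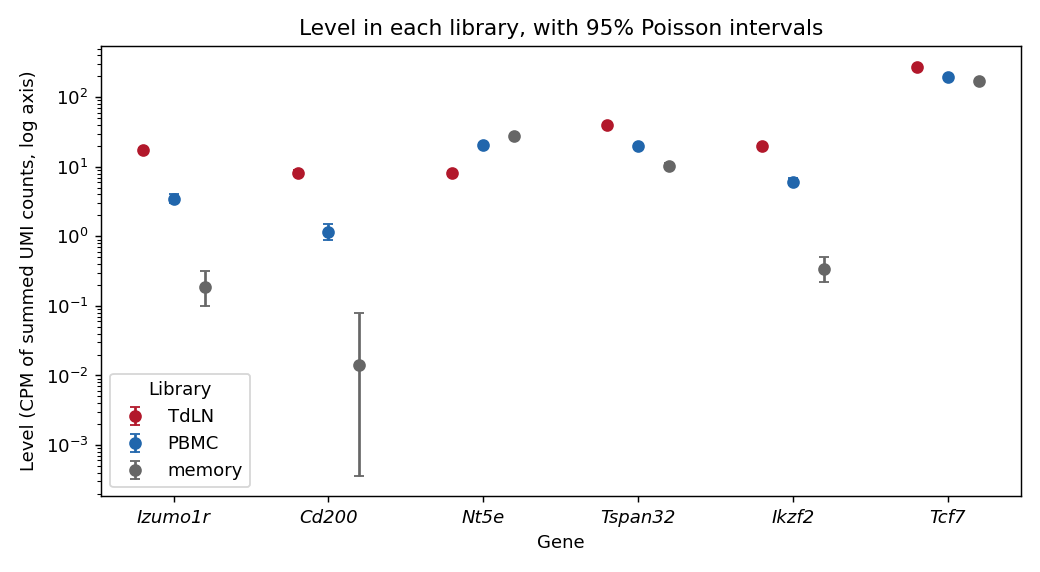
Level of the 5 genes and Tcf7 in CPM of summed UMI counts (log axis) in the TdLN, PBMC and memory libraries; points are 1 library each and bars are 95% Poisson intervals, hidden by the point where narrow. Izumo1r, Cd200, Tspan32 and Ikzf2 go down from TdLN to PBMC to memory, and Nt5e goes up from 8.08 to 27.3 CPM.

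With a minimum of 20 CPM in the higher library, only Tspan32 of the 5 counted as at least 2-fold higher in TdLN than in memory, where 4.22% of all 4647 measured genes were, and only Nt5e as at least 2-fold lower (1.89% of genes). With a minimum of 5 CPM, Izumo1r, Cd200, Tspan32 and Ikzf2 all counted as higher, against 5.65% of 8442 genes. In TdLN over PBMC, Tspan32 counted at 20 CPM (3% of genes were higher) and the same 4 genes at 5 CPM (4.46%), with Nt5e lower at both (1.87% and 2.42%). In PBMC over memory, none of the 5 counted at 20 CPM (1.69% of genes were higher, 0.684% lower), and Ikzf2 did at 5 CPM (2.43% higher, 1.61% lower). The choice of the genes used these ratios, so nothing is read from the counts. The comparisons share libraries. Of the 18 genes in a list for anergy and tolerance, 9 were measured at 20 CPM in TdLN or memory, of which 3 reached 2-fold or more on the TdLN side and none on the memory side, with a median log2 ratio of 0.44 against 0.17 for all genes. Egr2 and Egr3, transcription factors of anergy, stayed under that minimum, with 6.79 and 11.4 CPM in TdLN and 0.1997 and 0.214 CPM in memory.

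To compare cells at equal depth, each cell was thinned to 4200 UMIs, which left out 198 TdLN, 504 PBMC and 276 memory cells. In TdLN, Izumo1r was then detected in 4.94% of 6067 cells, Cd200 in 2.34%, Nt5e in 3.71%, Tspan32 in 12.6% and Ikzf2 in 6.26%. In PBMC the shares of 5148 cells were 1.07%, 0.408%, 7.73%, 7.36% and 1.92%. In memory the shares of 6727 cells were 0.0743%, 0.0149%, 10.2%, 4.01% and 0.119%. The order of the libraries by share was the same as by CPM for each gene. Unthinned, Izumo1r was in 10.6%, 2.18% and 0.143% of cells.

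At least 2 of the 5 genes were found in 258 TdLN cells (4.25%, Clopper-Pearson 95% interval 3.76 to 4.79), 68 PBMC cells (1.32%, 1.03 to 1.67) and 33 memory cells (0.491%, 0.338 to 0.688). The sets were made of different genes. Nt5e was detected in 51 of the 258 TdLN cells, 34 of the 68 PBMC cells and 31 of the 33 memory cells, and Izumo1r in 125, 23 and 0 of them. Counted without Nt5e, at least 2 of the 4 other genes were found in 3.54%, 0.719% and 0.0446% of the cells of the TdLN, PBMC and memory libraries. A single TdLN cell held all 5 genes.

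Within TdLN, the 4 genes other than Nt5e were found in the same cells more often than the product of their shares. Izumo1r and Cd200 were found together in 30 cells where the product gives 7.02, a ratio of 4.27 (2.88 to 6.10). The ratio was 3.37 (2.28 to 4.82) for Ikzf2 and Cd200, 2.75 (2.03 to 3.63) for Cd200 and Tspan32, and 2.61 (1.93 to 3.45) for Izumo1r and Ikzf2. It was 1.96 for Izumo1r and Tspan32 and 1.53 for Ikzf2 and Tspan32, again with intervals above 1. Among Izumo1r-positive TdLN cells, 10.0% held Cd200, against 1.94% of Izumo1r-negative cells. The 4 pairs with Nt5e had ratios from 0.814 to 1.35, and each interval included 1. The interval of Izumo1r and Nt5e, the pair that marks anergic CD4 T cells, ran from 0.755 to 2.22 on 15 cells.

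In PBMC, 4 of the 6 pairs without Nt5e had intervals above 1, on few cells. Izumo1r and Ikzf2 were found together in 10 cells, 9.45 times the product (4.53 to 17.4). Izumo1r and Cd200 shared 3 cells, and this ratio of 13.4 has an interval from 2.76 to 39.1. Izumo1r and Tspan32 had 2.72 and Ikzf2 and Tspan32 2.06, both with intervals above 1. Ikzf2 and Cd200 shared 2 cells (4.95, 0.600 to 17.9) and Cd200 and Tspan32 4 cells (2.59, 0.705 to 6.62), with intervals that included 1. The pairs with Nt5e again included 1, with no cell holding both Nt5e and Cd200. Without the marked cells, the TdLN ratio was 4.68 for Izumo1r and Cd200, 3.71 for Ikzf2 and Cd200, 2.66 for Cd200 and Tspan32 and 2.62 for Izumo1r and Ikzf2.

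**Figure D2:**
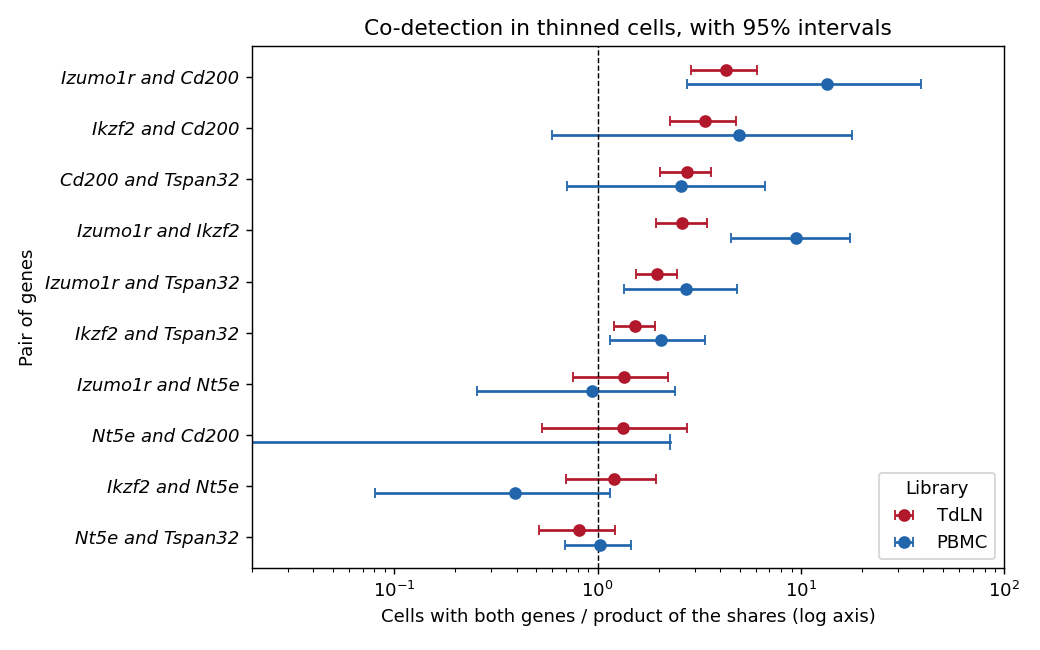
Cells that held both genes of a pair, divided by the number the product of the 2 shares gives (log axis), in thinned TdLN and PBMC cells; points are observed ratios, bars 95% intervals, the dashed line is 1, and the bar without a point is a pair with no shared cell. The 6 pairs without Nt5e lie above 1 in TdLN, and the 4 pairs with Nt5e have intervals that include 1 in both libraries.

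Tcf7 was abundant in each library, at 274 CPM (TdLN), 196 CPM (PBMC) and 171 CPM (memory). In TdLN, 71.3% of cells with at least 2 of the 5 genes held a Tcf7 UMI (65.4 to 76.8), against 64.1% of cells with none (62.7 to 65.5); without marked cells the shares were 73.5% and 64.3%. In PBMC the shares were 63.2% (50.7 to 74.6) and 41.8% (40.3 to 43.3). In memory they were 39.4% (22.9 to 57.9) and 49.4% (48.1 to 50.7), with overlapping intervals. The TdLN intervals also overlapped slightly with marked cells kept, and did not without them (67.6 to 78.9 and 62.9 to 65.7). Cells with these genes were thus mostly Tcf7-positive in TdLN and PBMC, and so were most TdLN cells without them.

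The overlap differed among the 5 genes. In PBMC, 74.5% of Izumo1r-positive cells held Tcf7, against 42.9% of the rest. The same shares were 60.6% and 42.9% for Ikzf2, 71.4% and 43.1% for Cd200 (on 21 positive cells), 50.5% and 42.6% for Nt5e, and 45.1% and 43.1% for Tspan32. In TdLN, Izumo1r-positive cells had 73.0% against 64.6% and Ikzf2-positive cells 71.6% against 64.6%, and Nt5e-positive cells 64.0% against 65.1%. Cd200-positive TdLN cells had 64.8% against 65.0%, and 69.8% against 65.4% without marked cells. Tspan32-positive TdLN cells had 68.0% against 64.6%, and 70.1% against 64.9% without marked cells. Izumo1r had 11.7 CPM in TdLN cells with no Tcf7 UMI and 23.6 CPM in those with at least 3. In PBMC it had 1.14 and 8.95 CPM in the same cells, and Ikzf2 had 4.07 and 17.9 CPM.

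Restricting the libraries to thinned cells with a Tcf7 UMI left the direction of each ratio, with some ratios smaller. Izumo1r was 126-fold higher in TdLN than in memory (34.5 to 1042, on 2 memory counts) and 3.37-fold higher than in PBMC (2.49 to 4.65). Ikzf2 was 57.7-fold higher than in memory (24.5 to 179) and 2.55-fold higher than in PBMC (1.98 to 3.31). Cd200 was 3.95-fold higher in TdLN than in PBMC (2.29 to 7.30), against 7.08-fold over all cells, and 88.3-fold higher than in memory (15.5 to 3519, on 1 memory count). Tspan32 was 3.46-fold higher than in memory (2.90 to 4.15) and 1.87-fold higher than in PBMC (1.59 to 2.21). Nt5e was 2.83-fold lower in TdLN than in memory (2.34 to 3.45). In PBMC over memory, Nt5e was 1.15-fold lower with an interval that included 1 (0.969 to 1.37).

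**Figure D3:**
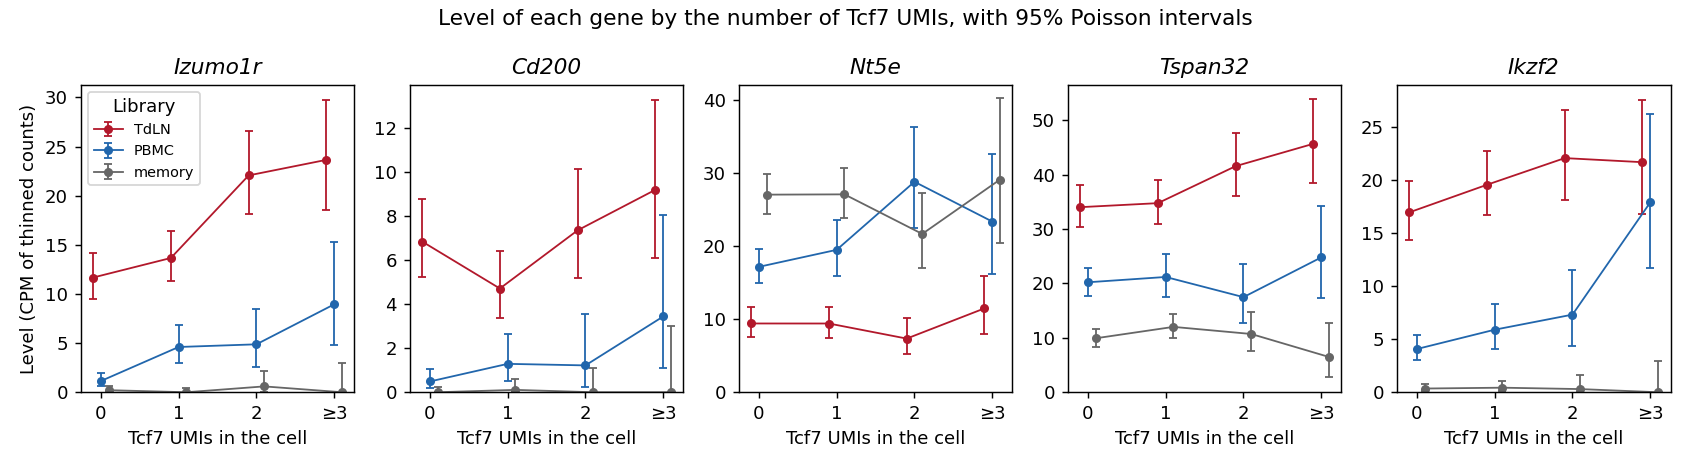
Level of each gene (CPM of counts thinned to 4200 UMIs a cell) in cells with 0, 1, 2 or at least 3 Tcf7 UMIs, for the TdLN, PBMC and memory libraries; points are sums over cells of 1 library and bars are 95% Poisson intervals. Izumo1r goes from 11.7 to 23.6 CPM in TdLN and from 1.14 to 8.95 CPM in PBMC, and Nt5e has its lowest levels in TdLN at each step.

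Other genes were compared between cells with at least 2 of the 5 genes and cells with none. Of all genes, 1.95% were at least 2-fold higher and 0.291% at least 2-fold lower in TdLN, and 3.21% and 5.51% in PBMC. In TdLN, the 10 highest ratios were those of Fcmr (17.7-fold), Wnt10a (12.98-fold), Cd81, Ebf1, Mef2c, Cd79a (8.54-fold), H2-Aa, H2-Eb1, H2-Ab1 and Cd74 (7.11-fold). All but Wnt10a are known from B cells or antigen-presenting cells. They moved with 9 B cell- or macrophage-marked cells among the 258 (3.49%, against 0.766% of the cells with none): without marked cells, Cd79a and Ebf1 had 0 counts in the remaining 249 cells. The ratios between cells that follow leave the marked cells out.

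Wnt10a, a Wnt ligand, then led in TdLN with 21.04 CPM in the cells with at least 2 of the genes and 1.58 CPM in those with none (13.3-fold, 7.34 to 23.9), on 22 counts. Lag3, an inhibitory receptor, had 38.2 and 5.99 CPM (6.39-fold, 4.34 to 9.23), and Ctla4, another, had 84.1 and 15.9 CPM (5.30-fold, 4.13 to 6.75). Both were also higher in PBMC, at 5.56-fold (3.04 to 9.43) and 8.41-fold (3.69 to 16.9). The next highest in TdLN were Tbc1d4 (4.78-fold), Ptms (4.21-fold), Cenpf, Ube2c, Capg (3.90-fold), Bcl2a1d and Hist1h2ae. The lowest ratio in TdLN was that of Cxcr4 (0.253-fold, 0.0925 to 0.556), which had 1.23-fold in PBMC (0.447 to 2.70). All 4 measured genes of the list for inhibitory receptors and exhaustion were at least 2-fold higher in TdLN, with a median log2 ratio of 1.89 against 0.14 for all genes; they include Tox, a transcription factor of exhausted T cells (2.57-fold, 2.03 to 3.23), and Cd160 (2.35-fold). In PBMC, 3 of 4 were. At this threshold, 1.52% of 4791 genes were higher and 0.271% lower in TdLN without the marked cells, and 3.21% of 4769 were higher in PBMC. A gene was measured if either set reached 20 CPM. In TdLN, Lag3 and Ctla4 reached it only in the cells with at least 2 of the genes. In PBMC this held for all 3 higher genes, Lag3, Ctla4 and Tox (9.45, 3.75 and 18.96 CPM in cells with none). Cd160 reached 20 CPM in both sets and had 1.23-fold in PBMC (0.667 to 2.07). Nothing is thus read from the list counts. Before thinning, the cells with at least 2 of the genes had a median of 10413 UMIs against 9819 in TdLN and 10020 against 7773 in PBMC, and the part of depth was not tested. The cells were chosen by 5 genes that are themselves correlated, and cells of a library are not replicates, so these ratios carry no test.

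Of the 11 measured genes of the anergy and tolerance list, 3 were at least 2-fold higher in TdLN: Lag3, Ctla4 and Btla (2.29-fold), which are inhibitory receptors. All 3 were under 20 CPM in the cells with none (5.99, 15.9 and 13.3 CPM) and were measured only through the other set. Lag3 and Ctla4 are also in the list for inhibitory receptors. Nothing is read from this count. The anergy-associated enzyme genes Cblb (1.25-fold), Itch (0.933-fold), Dgka (1.04-fold) and Dgkz (1.34-fold) were under 2-fold in TdLN, with an interval above 1 for Dgkz (1.06 to 1.66). In PBMC, 2 of 10 measured genes of the list were at least 2-fold higher and 1 at least 2-fold lower, and Cblb had 1.63-fold (1.004 to 2.51). Egr2 had 2 counts in the cells with at least 2 of the genes and 1.91 CPM against 6.41 CPM, an interval that included 1. Nrp1 had 11.5-fold (5.09 to 24.9) on 12 counts, under the minimum of 20 CPM.

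Stem and memory genes were split. Slamf6, a surface receptor of stem-like T cells, was 2.81-fold higher in TdLN (2.46 to 3.21) and 2.82-fold in PBMC (2.07 to 3.76). Myb had 2.70-fold and 7.08-fold, and Id3 2.12-fold and 3.68-fold. Tcf7 itself had 1.29-fold and 1.73-fold, while Il7r, the interleukin 7 receptor, was 0.640-fold in TdLN (0.556 to 0.733) and 1.02-fold in PBMC. Dividing cells were more frequent in the TdLN set: 20.5% of its cells were cycling, against 7.37% of those with none, and 7 of 9 measured cell cycle genes were at least 2-fold higher. Of the 7, Mki67, Ube2c, Ccnb2 and Rrm2 reached 20 CPM only in the TdLN set. Top2a (2.41-fold), Birc5 (2.39-fold) and Cenpa (2.26-fold) reached it in both. The part that cell division has in the other ratios was not tested.

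Several effector genes were lower in the same cells. Of the 5 measured cytotoxic effector genes in TdLN, 1 was at least 2-fold lower and none higher, and Nkg7, a cytotoxic granule gene, had 1.11-fold (1.05 to 1.18). Ccl5, a chemokine of effector T cells, had 344 CPM in TdLN cells with at least 2 of the genes and 925 CPM in those with none (0.372-fold, 0.334 to 0.413), and 0.527-fold in PBMC (0.510 to 0.546). Ccl4 had 0.318-fold in TdLN and 0.193-fold in PBMC, and Prf1, the gene of perforin, 0.565-fold and 0.434-fold. None of the 14 measured cytotoxic effector genes was 2-fold higher in PBMC, and 6 were at least 2-fold lower (5.47% of all genes were lower). P14 cells use the beta chain segment Trbv13-3. Other segments made up 17.1% of 41 beta V UMIs in PBMC cells with at least 2 of the genes (7.15 to 32.1) and 30.6% of 1642 in those with none (28.4 to 32.9), with overlapping intervals. In TdLN the shares were 16.7% of 96 (9.84 to 25.7) and 9.73% of 1562 (8.31 to 11.3), which also overlap. In memory they were 12.5% of 24 (2.66 to 32.4) and 4.41% of 4715 (3.84 to 5.04), again overlapping. The 24 come from the 33 memory cells that also held RNA known from natural killer cells, as given above. Among cells with none, the share thus differed between the libraries. The part of other segments in the ratios, within or between libraries, was not tested. Over the thinned TdLN cells, the genes whose log counts followed the number of the 5 genes detected most closely were Cd52 (Pearson r = 0.187), Slamf6 (0.182) and Ctla4 (0.179). These weak correlations are no finding and are a description, with the marked cells kept, over 6067 cells of 1 library.

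**Figure D4:**
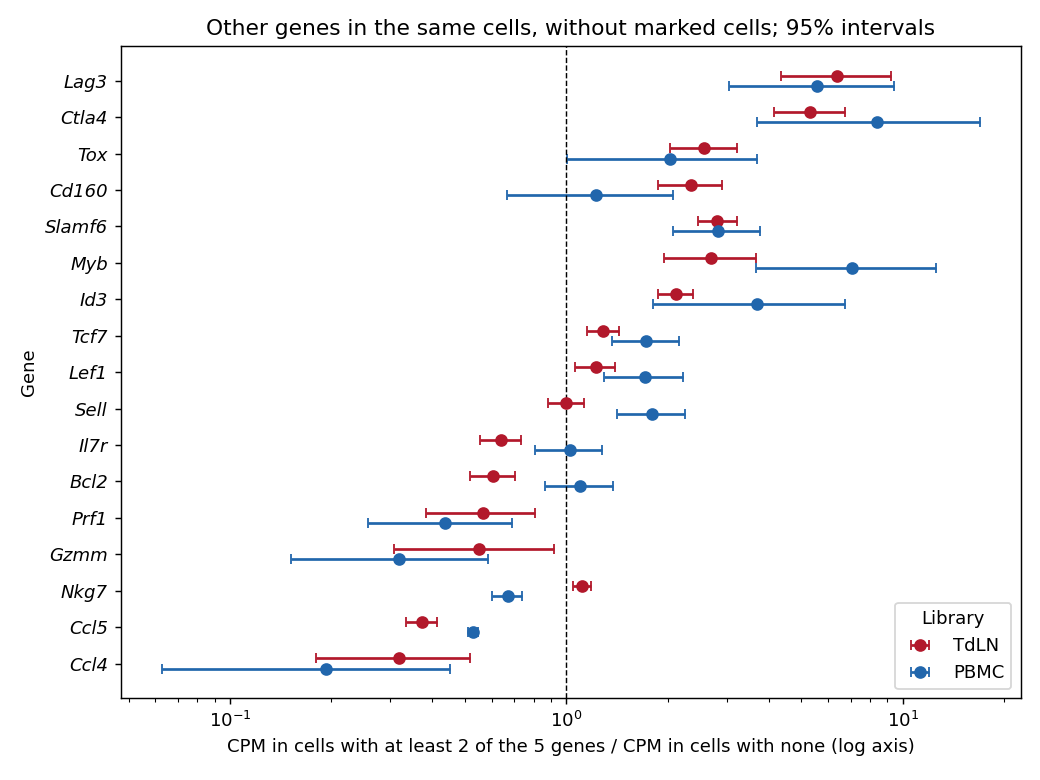
Ratio of CPM in cells with at least 2 of the 5 genes to CPM in cells with none (log axis) for selected genes of the inhibitory receptor, stem and memory and cytotoxic lists and for Ccl4, in thinned TdLN and PBMC cells without marked cells; bars are 95% conditional binomial intervals and the dashed line is 1. Lag3 and Ctla4 lie at 5-fold or more in both libraries, and Ccl5 and Ccl4 lie below 1 in both.

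In TdLN, the cells of each gene were also compared with the cells without it. In Nt5e-positive cells, 3 of the 6 measured genes of the cytotoxic effector list were higher by 2-fold or more and none lower by as much. In the cells of Izumo1r, Ikzf2 and Cd200, 3, 2 and 4 were lower by that size and none higher, and in those of Tspan32 1 was lower and 1 higher. Over all measured genes, 13 of 4680 were higher by that size in Nt5e-positive cells. Those lower were 12 of 4692 for Izumo1r, 5 of 4683 for Ikzf2 and 57 of 4877 for Cd200. For Tspan32, 1 of 4588 was lower and 27 were higher. A gene was measured if either set of cells reached 20 CPM, so these counts can include genes that reached it in 1 set only. The difference between these sets was not tested. Nt5e-positive cells had more Gzma, the gene of granzyme A (56.6 against 18.7 CPM in Nt5e-negative cells, 3.02-fold, 2.23 to 4.02), S100a4 (2.55-fold, 1.89 to 3.37) and Ccl5 (2.35-fold, 2.24 to 2.47). They had less Ube2c (7.59-fold lower, 2.58 to 36.9) and Birc5 (6.27-fold lower, 2.44 to 23.1), genes of dividing cells. Izumo1r-positive cells had less Gzma (13.2-fold lower, 3.64 to 109, on 2 counts) and less Ccl5 (3.92-fold lower), with more Wnt10a (10.3-fold), Lag3 (5.64-fold) and Ctla4 (4.10-fold). Cd200-positive cells had the same leading genes, Wnt10a (10.9-fold) and Lag3 (7.35-fold). Ikzf2-positive cells had more Trps1 (2.74-fold), S100a4 (2.59-fold, 2.04 to 3.25), as Nt5e-positive cells did, Ctla4 (2.55-fold) and Itgae (2.14-fold), and less Gzma (6.72-fold lower, 2.86 to 20.8). Tspan32-positive cells were led by the division genes Ube2c (4.27-fold) and Cenpf (4.17-fold).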

How the data were processed

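Single-cell RNA was measured in 3 libraries of sorted P14 CD8 T cells, 1 for each group. The deposited values are UMI counts for each gene and barcode, without normalization; per the submitters' processing notes, the authors used Cell Ranger 3.1.0 and mm10. The kit reads the 3' end of transcripts, per the labels' protocols. A library of tumour-infiltrating cells was not analysed here. Kept cells held 69537836, 48987260 and 70116366 counts in TdLN, PBMC and memory. Counts were summed per library and divided by the total (CPM). A total of 3 counts, the limit that a count of 0 allows, is 0.0431, 0.0612 and 0.0428 CPM. Intervals are 95% and cover counting error only: Poisson for CPM, conditional binomial for ratios, Clopper-Pearson for shares (scipy 1.17.1). No p-value is given, since there is 1 library a group. Cells were thinned to 4200 UMIs without replacement (seed 1). Co-detection is the number of cells with both genes over the product of shares. Ratios at 2-fold or more with 20 CPM in the higher group were counted. Marked cells held B cell, macrophage or dendritic cell, or red cell or platelet genes at 0.2% of UMIs or more. Doublets were not called; an alternative left out the 5% of cells with the most UMIs. edgeR 4.0.16 gave the TMM factors of 1 alternative.

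The named genes are the 5 members, Tcf7, the 10 highest and 5 lowest ratios in TdLN cells with at least 2 members over none (20 CPM or more; no ribosomal, mitochondrial, predicted, receptor segment, immunoglobulin, haemoglobin, Xist or Y-linked genes), the 3 genes most correlated with the number of members detected, and genes of the lists. The members and lists were chosen with earlier results of these data known. The ranking without marked cells, the gene-by-gene ranking and the genes plotted were chosen after the values were seen, as were the motifs searched. The calculations were tested on simulated data.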

Additional observations from a re-analysis of the deposited data

Results flagged for a closer look

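Several genes outside the 5 had ratios on opposite sides of 1 in TdLN and PBMC, with intervals that did not include 1 in either; whether the libraries differ was not tested. These ratios keep the marked cells, unlike those in the Results. In cells with at least 2 of the 5 genes over cells with none, Cd82, a tetraspanin gene, had 1.43-fold in TdLN and 0.602-fold in PBMC. Cd8b1, the CD8 beta chain, had 1.11-fold and 0.806-fold. Nkg7, a cytotoxic granule gene, had 1.09-fold and 0.668-fold. Jun, an AP-1 gene that also responds to tissue handling, went the other way, with 0.842-fold in TdLN and 2.01-fold in PBMC.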

How the results depend on the processing

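No paired analysis was possible because each group is 1 library and no test was made. Of 148 alternative values for the ratios of the 5 genes between libraries, all 148 kept their sign; 24 moved beyond the interval first reported. The count of the 5 genes at least 2-fold higher in TdLN than in memory, 1 as reported, was 2 with no cell filter, 3 with totals without ribosomal and mitochondrial genes, 4 at 5 CPM and 0 at 50 CPM. For TdLN over PBMC, also 1, it was 2, 3, 4 and 0 in the same order, and 0 without marked cells, without cycling cells, without the 5% of cells with the most UMIs, with TMM scaling, with equal weight per cell and at 3-fold. For PBMC over memory, 0 as reported, it was 1 at 5 CPM. These counts turn on Tspan32 near 2-fold and on Izumo1r and Ikzf2 near 20 CPM. The share of cells with at least 2 of the genes followed depth: at 2000 UMIs it was 1.63% in TdLN, 0.340% in PBMC and 0.158% in memory, at 8000 UMIs 8.90%, 4.81% and 1.28%, and with no thinning 13.5%, 4.41% and 2.04%. In cells of 1000 genes or more with mitochondrial counts of 5% or less it was 3.33% in TdLN and 0.826% in PBMC, and without cycling cells 3.74% in TdLN. Without Nt5e, a choice made after seeing the data, it was 3.54%, 0.719% and 0.0446%. Of 111 values for pairs, 110 stayed within the interval first reported and 101 kept their side of 1; those that did not are pairs with Nt5e, whose intervals include 1.

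Among 223 values for named genes, 208 kept their sign. In 7 the sign changed from a first ratio of at least 2-fold in either direction. Another 73 moved beyond the interval first reported. The cause was not tested. The 7 values are those that follow. The log2 ratio of Pim3 in PBMC, which rests on 1 count, was 0.96 at 2000 UMIs, 0.0057 at 8000 UMIs, 1.41 with at least 3 of the genes and 0.19 with at least 1. In TdLN, Pim3 was 0.018 with at least 1 of the genes, Tex30 0.24 at 8000 UMIs and Cd74 -0.34 with at least 3 of the genes.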
